A study of Homo sapiens with 22 samples.

Results

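The cells described here are the POU5F1-high cells of day 9 (D9) in the mRNA reprogramming of human fibroblasts in microfluidic chambers. A cell belonged to them if at least 1000 genes were detected in it, at most 10% of its unique molecular identifiers (UMIs, each standing for 1 captured RNA molecule) came from mitochondrial genes, POU5F1 reached 200 CPM (counts per 1000000 UMIs of the cell) and COL1A1 stayed below 1000 CPM. This gate held 1315 of the 3395 kept cells of D9, out of 41975 kept cells in the whole series. The other 2080 kept cells of D9, taken from the same libraries, were the group they were set against.

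The starting cells of every group were BJ cells, an established line of newborn foreskin fibroblasts, so that all samples derive from 1 cell line. They received daily transfections of non-modified mRNAs for 6 factors (POU5F1, SOX2, KLF4, MYC, LIN28A and NANOG), 8 in all, the last on day 8, in supplemented Pluriton medium under low oxygen on a fibronectin coat, and were moved to iPSBrew XF medium from D9 on. D0 cells were untransfected, D3, D5 and D7 cells were taken while transfections went on, and D9, D11, D13 and D15 cells after them. Single-cell RNA-seq (10x Genomics, 3' counting) was run on 22 libraries. Each day had 2 replicate pools, A and B, each made of cells from 4 chips, and on D9 each pool was captured from 2 frozen aliquots, giving libraries A1, A2, B1 and B2. Aliquots of a pool are not replicates of each other, so n is 2 pools throughout. Nothing in the labels says whether pools came from separate thaws of the line, and the spread between pools may be technical.

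POU5F1 (OCT4) encodes a POU-domain transcription factor that pluripotent cells need. In pluripotent cells Nodal, a secreted ligand of the TGF-beta family, signals through activin receptors with the co-receptor TDGF1 (CRIPTO) to SMAD2 and SMAD3, which act on chromatin with FOXH1. LEFTY1 and LEFTY2 are secreted inhibitors of Nodal and are themselves targets of the pathway, so that they limit its range. During reprogramming, fibroblasts are known to lose mesenchymal genes and gain epithelial junction genes before the later pluripotency genes come on.

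On D9 the gate held 70 of 143 kept cells (49.0%, 95% Wilson interval 40.9 to 57.1) in library A1. In A2 it held 522 of 1599 (32.6%, 30.4 to 35.0). In B1 it held 457 of 889 (51.4%, 48.1 to 54.7), and in B2 266 of 764 (34.8%, 31.5 to 38.3). These intervals cover counting error only. Over the 2 pools the share was 38.9% ± 6.9 (SD, n = 2). The same gate took none of 10776 kept cells on D0, which by a floor of 3 cells of that total allows a share of up to 0.0278%, and none on D3. It took 5 cells on D5 (0.274% ± 0.307) and 110 on D7 (2.69% ± 0.698). On later days it took 3713 cells (60.0% ± 4.95, D11), 4123 cells (71.3% ± 12.7, D13) and 2290 cells (85.7% ± 0.458, D15). D9 was the earliest of these days on which the gate held more than 5% of cells.

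The members were chosen by their measured POU5F1 and COL1A1 levels, so these values are a description and carry no test. POU5F1 ran from 201 to 3140 CPM over the members, with quartiles of 484 and 1280 and a median of 847 CPM. Just inside the limit, 77 members lay between 200 and 250 CPM, and just outside it 126 cells lay between 150 and 200 CPM. No COL1A1 UMI was seen in 120 members, and 14 members had 500 CPM or more. Only 9 cells were high in both genes and stayed out of the gate. Of the other cells, 1611 were low in both and 469 had COL1A1 at 1000 CPM or more. In the annotation of build GRCh38, POU5F1 lies on the minus strand of chromosome 6 (31164337 to 31180731) and COL1A1 on the minus strand of chromosome 17 (50184101 to 50201632).

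**Figure D1:**
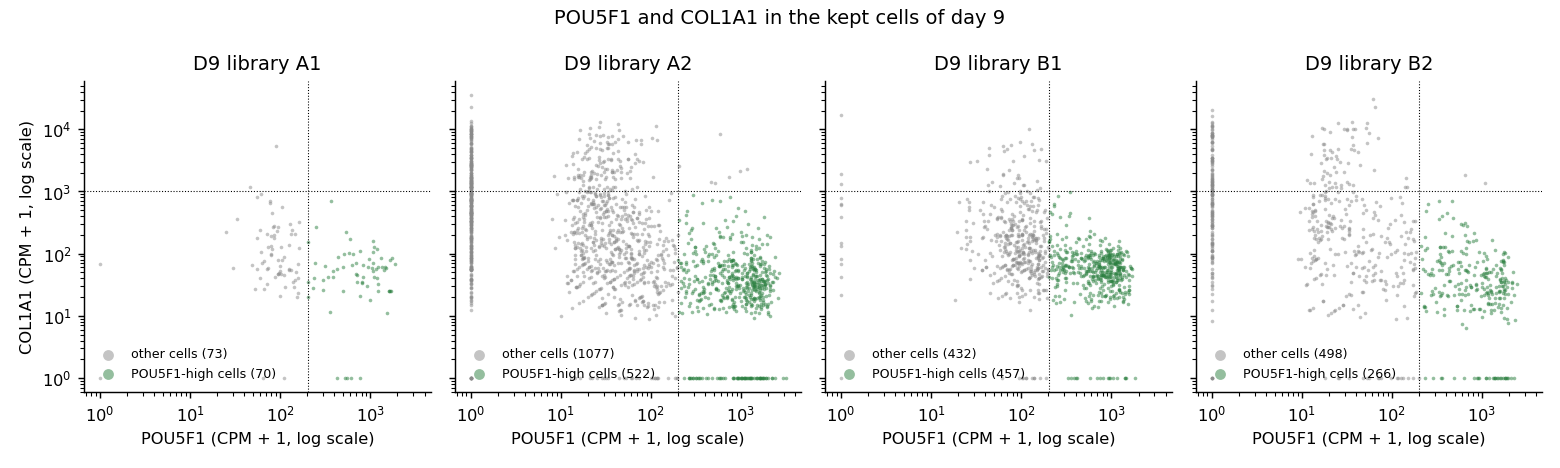
POU5F1 (x axis, CPM plus 1, log scale) against COL1A1 (y axis, CPM plus 1, log scale) in every kept cell of D9, with 1 panel per library and the limits of 200 and 1000 CPM as dotted lines. The 1315 cells in the gate (green) lie in the lower right, and in libraries A1 and B1 few of the other cells (grey) lie near 0 on the POU5F1 axis.

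The first aliquots (A1 and B1) stood apart from the second (A2 and B2) in both groups of cells. The median POU5F1 level of the other cells was 87.6 and 93.0 CPM in A1 and B1 and 20.8 and 17.3 CPM in A2 and B2. Their median COL1A1 level ran the opposite way, at 77.3 and 132 CPM in the first aliquots and 268 and 295 CPM in the second. Within the gate, 374 of 13144 genes were at least 2-fold higher in both first aliquots than in both second ones and 8 were lower, whereas pool A and pool B differed in this way in 1 gene upwards and 2 downwards. Values of NME2, a nucleoside diphosphate kinase, were 373 (A1), 5.94 (A2), 75.3 (B1) and 7.58 CPM (B2), and those of the interferon-induced membrane protein gene IFITM1 were 457, 20.3, 186 and 31.0 CPM. Over all kept cells of the 22 libraries NME2 ranged from 6.08 to 457 CPM, with libraries of D0, D3, D9, D11 and D13 under 10 CPM, so this difference was not bound to 1 day. Ratios between the gate and the other cells were nearer 1 in both first aliquots than in both second ones for 308 of the 514 genes counted as higher below (59.9%) and for 387 of the 767 counted as lower (50.5%). The share over all 13144 genes was not taken, so nothing about the counted genes is read from these shares. The part of the aliquots in these results was not tested, and the values for each library are given for that reason.

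The labelled markers were met by the members. After thinning each cell to 5000 UMIs, TDGF1 was detected in 89.9% ± 1.91 of POU5F1-high cells, in 39.9% ± 1.27 of the other D9 cells and in 0.00814% of D0 fibroblasts (n = 2 pools). For LEFTY2 these shares were 49.3% ± 2.21, 20.9% ± 2.38 and 0.0163%, and for DPPA4 57.2% ± 2.68, 16% ± 0.489 and 0.00814%. Without thinning, TDGF1, LEFTY2 and DPPA4 were seen in 99.5%, 89.5% and 92.9% of members, whose median depth was 71814 UMIs against 56938.5 in the other cells and 25822 on D0. All D9 and D0 cells held 5000 UMIs or more. UMIs of fibroblast markers were also seen in the members. COL1A2, a collagen I chain, was detected at 5000 UMIs in 37.4% ± 0.542 of members against 72.5% ± 0.845 of the other cells and 97.7% of D0 cells, and the proteoglycan gene DCN in 2.42% ± 1.27 against 25.6% ± 2.29 and 83.3%. Free RNA from the other cells can give such UMIs, no D9 cells that lack these genes were at hand as a background, and its part was not tested. THY1 (CD90), which fibroblasts and pluripotent cells both carry, was detected in 85.4% ± 3.67 against 89.2% ± 1.52 and 88.8%.

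Over the 13144 genes with a UMI in at least 5% of kept D9 cells, 514 (3.91%) were at least 2-fold higher in the POU5F1-high cells in all 4 libraries and 767 (5.84%) at least 2-fold lower. Levels are CPM of the UMIs summed over the cells of a group, ratios are between 2 such levels of the same library, and none of these ratios was tested because the gate was drawn on the same cells. The median log2 ratio over all genes was -0.029. Of the genes with 50 CPM or more in the higher group in every library (mitochondrial and ribosomal protein genes, POU5F1 and COL1A1 left out), those with the largest ratios in their least extreme library were FOXD3-AS1, RP11-267L5.1, EPCAM, LINC01356, NODAL, ACTA1, FOXH1, SEMA6A, UTF1 and CERS4. Under the same limit, those with the smallest were HOXA10, MMP1, DKK1, TGFBI, RHOBTB3, NNMT, IGFBP5, EMP1, POSTN and PRSS23.

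Among the ligands of the Nodal pathway, NODAL (chromosome 10, 70431936 to 70447951, minus strand) was at 301, 404, 332 and 391 CPM in the POU5F1-high cells of A1, A2, B1 and B2 and at 57.1, 44.4, 69.7 and 54.7 CPM in the other cells. The 2 groups did not overlap. Pool means were 375 ± 21.3 and 53 ± 10.5 CPM, and the fold over the 2 pools was 7.14. GDF3, a related ligand, averaged 142 ± 11.4 against 62.2 ± 2.75 CPM and missed the 2-fold limit in library A1, where it was at 111 against 71.5 CPM. INHBA, the subunit of activin A, ran the other way at 3.41 ± 1.24 against 32.3 ± 3.70 CPM, a log2 ratio of -3.29 ± 0.37.

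The inhibitors were likewise higher in the members. LEFTY1 was at 268, 328, 236 and 319 CPM in A1, A2, B1 and B2. In the other cells it was at 82.2, 68.7, 74.7 and 80.5 CPM, a 4.01-fold difference over the 2 pools. LEFTY2 was at 313, 402, 246 and 426 CPM against 153, 122, 134 and 152 CPM, 2.68-fold over the 2 pools. In B1 it fell short of 2-fold. Both genes lie side by side on the minus strand of chromosome 1 (LEFTY1 225886282 to 225911382, LEFTY2 225936598 to 225941383) and are near-identical copies, so how reads were split between them is uncertain. FST, a secreted binder of activin, was at 96.8 CPM against 146 CPM and counted neither way.

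TDGF1, the co-receptor, was at 631, 800, 563 and 798 CPM against 296, 282, 236 and 280 CPM (726 ± 71.0 and 274 ± 14.2 CPM, 2.65-fold). FOXH1, the DNA-binding partner of the SMADs, was at 75.7, 111, 80.8 and 95.6 CPM against 17.2, 16.3, 20.6 and 17.2 CPM. It was 5.54-fold higher over the 2 pools. The transducers themselves showed no such gap, since SMAD2 was at 25.9 against 24.3 CPM, SMAD3 at 7.67 against 7.42 CPM and SMAD4 at 9.55 against 10.0 CPM. Of 17 pathway genes compared, 4 were 2-fold higher in all libraries, 1 was lower and 12 were neither, with a median log2 ratio of 0.39.

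Of 25 pluripotency genes that were not transfected, 16 were 2-fold higher and none lower, with a median log2 ratio of 1.49. The 5% filter pooled members and other cells, so a gene seen mainly in the members could enter this count. EPCAM, an adhesion protein on the surface of pluripotent and epithelial cells (chromosome 2, 47345158 to 47387601, plus strand), was at 345, 306, 333 and 286 CPM against 44, 23.4, 54.9 and 22.6 CPM. UTF1, a chromatin protein of pluripotent cells, was at 329, 427, 402 and 416 CPM against 77.2, 60.1, 106 and 70.8 CPM. Both were far apart in every library, by 10.5-fold and 5.71-fold over the 2 pools. DPPA4, a chromatin protein of pluripotent cells and the early embryo, was at 297, 223, 184 and 233 CPM against 64.2, 49.9, 51.9 and 44.2 CPM (4.48-fold). DNMT3B, a de novo DNA methyltransferase of pluripotent cells, was at 73.6, 57.9, 48.3 and 62.3 CPM against 18.0, 6.08, 8.33 and 6.33 CPM (8.07-fold). The largest fold over the 2 pools among the leading genes was that of FOXD3-AS1, a long non-coding RNA on the minus strand of chromosome 1 (63320878 to 63324441) that overlaps the transcription factor gene FOXD3 on the plus strand (63322567 to 63325128). It was at 86.0, 111, 81.9 and 109 CPM against 9.55, 4.62, 6.32 and 3.22 CPM, 21.4-fold, and FOXD3 itself was at 5.78 against 0.252 CPM. L1TD1, an RNA-binding protein, and GAL, the neuropeptide galanin, were high in both groups and counted neither way, at 553 against 270 CPM and 1460 against 602 CPM.

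Counts of the transfected factors cannot be told apart from counts of the cells' own genes. NANOG was at 119, 122, 80.4 and 125 CPM in the members of A1, A2, B1 and B2 against 40.4, 29.9, 28.8 and 31.3 CPM (3.63-fold). SOX2 was at 267, 30.4, 42.1 and 29.1 CPM against 60.3, 4.07, 19.5 and 3.78 CPM, so that A1 lay far above the other libraries in both groups. LIN28A showed the same spread, at 1300, 138, 263 and 139 CPM against 444, 47.1, 171 and 53.2 CPM, and was not 2-fold in B1. KLF4 (7.95 against 4.50 CPM) and MYC (63.2 against 37.1 CPM) counted neither way. AES, a gene whose counts followed the transfection days in these libraries, was at 27800, 6410, 4670 and 5120 CPM in the members against 9240, 13200, 7920 and 12800 CPM. Within library A1, 1 member carried 16% of the AES UMIs, 16.2% of those of LIN28A and 18.3% of those of SOX2. Without that cell the library was at 23500, 1100 and 220 CPM. The same cell carried 5.71% of the MYC, 4.29% of the KLF4, 0.712% of the POU5F1 and 0.135% of the NANOG UMIs. What part transfected RNA had in any of these levels was not tested.

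Genes of the pre-implantation embryo were higher in 7 of 10 and lower in none, with a median log2 ratio of 2.73. Here too the gene filter pooled both groups, so genes seen mainly in the POU5F1-high cells could enter the count. DPPA5, an RNA-binding protein of early germ and pluripotent cells, was at 58.4, 54.3, 41.5 and 51.4 CPM against 7.04, 1.47, 5.04 and 1.43 CPM. KHDC3L, a maternal-effect gene of the oocyte, was at 24.8, 23.9, 23.8 and 19.2 CPM against 2.19, 0.768, 3.11 and 0.280 CPM. For DPPA3 (STELLA), which protects DNA methylation in the zygote, the means were 12.9 ± 1.11 and 1.71 ± 0.579 CPM. These members were sparse: at 5000 UMIs DPPA5 was detected in 14.8% ± 1.01 and DPPA3 in 6.0% ± 0.123 of POU5F1-high cells, against 1.37% ± 0.341 and 0.670% ± 0.0357 of the other cells. ARGFX, a homeobox gene of the early embryo, SUSD2, a surface marker of naive cells, and TFAP2C counted neither way, at 12.5 against 18.1, 30.1 against 17.3 and 33.8 against 23.4 CPM.

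Epithelial junction and keratin genes were higher in 13 of 23 and lower in none, with a median log2 ratio of 1.68. Some passed the 5% filter through the POU5F1-high cells alone. Without thinning, CRB3 was seen in 37.3% of these against 2.81% of the other cells, and CLDN3 in 15.9% against 2.22%. CDH1, the E-cadherin gene, was at 22.5, 11.2, 13.7 and 11.1 CPM against 5.64, 0.784, 1.92 and 0.869 CPM. ESRP1, a splicing regulator of epithelial cells, was at 41.0, 35.5, 29.8 and 36.0 CPM against 3.44, 1.65, 3.39 and 1.09 CPM (18.3-fold). Claudin genes were also higher, CLDN7 at 50.9 ± 6.05 against 4.84 ± 1.22 CPM and CLDN6 at 425 ± 30.2 against 110 ± 10.5 CPM. KRT18, a keratin of simple epithelia, was high in both groups (2230 ± 64.6 and 1160 ± 137 CPM) and missed the limit.

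Mesenchymal transcription factor and adhesion genes were lower in 14 of 19 and higher in none, with a median log2 ratio of -2.47. VIM, the intermediate filament of mesenchymal cells, was at 848, 863, 876 and 1130 CPM against 2700, 3160, 2460 and 3400 CPM. TWIST2, a transcription factor of mesenchyme, was at 7.93 against 83.5 CPM and the calcium-binding protein gene S100A4 at 148 against 820 CPM. THY1, at 394, 552, 531 and 555 CPM against 623, 656, 624 and 669 CPM, and PDGFRA, the receptor for platelet-derived growth factor, at 27.4 against 28.8 CPM, counted neither way.

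Matrix genes of fibroblasts were lower in 18 of 25 and higher in none, with a median log2 ratio of -2.36. Without the COL1A1 limit, which kept 9 cells out of the gate, the count of lower genes over all genes was 762 in place of 767. That setting moved only these 9 cells, so it cannot show what part the limit had. Set against only the 1611 other cells with low POU5F1 and COL1A1 below 1000 CPM, the members had 639 lower genes. LUM, which encodes the proteoglycan lumican, was at 8.04, 9.79, 25 and 16.1 CPM against 47.3, 318, 185 and 325 CPM. DCN was at 1.77, 3.88, 5.82 and 5.69 CPM against 16.1, 108, 40.4 and 119 CPM. COL3A1, a fibrillar collagen, was at 25 ± 1.38 against 350 ± 35.2 CPM. Summed over the list, matrix genes came to 1460 to 2050 CPM in the members of the 4 libraries and to 4160 to 9430 CPM in the other cells.

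Secreted inflammatory genes were lower in 8 of 17 and higher in none (median log2 ratio -2.59). MMP1, a collagenase, was at 15.3, 31.1, 28.3 and 11.5 CPM against 102, 569, 189 and 478 CPM, and the chemokine gene CXCL1 at 17.9 ± 6.94 against 236 ± 81.8 CPM. SPP1, a secreted phosphoprotein of the same list, differed from these: it was at 1420, 1410, 1420 and 1440 CPM in the members and at 1620, 969, 1360 and 1100 CPM in the other cells, and counted neither way. Of 14 ligand and receptor genes named by the study, ERBB3, a receptor for neuregulins, was higher at 22.7 ± 0.643 against 4.51 ± 1.16 CPM, and 4 were lower. HGF, the ligand of the receptor MET, was at 0.672 ± 0.0782 against 7.69 ± 0.847 CPM, and MET at 4.25 ± 0.800 against 10.4 ± 1.00 CPM, which counted neither way.

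**Figure D2:**
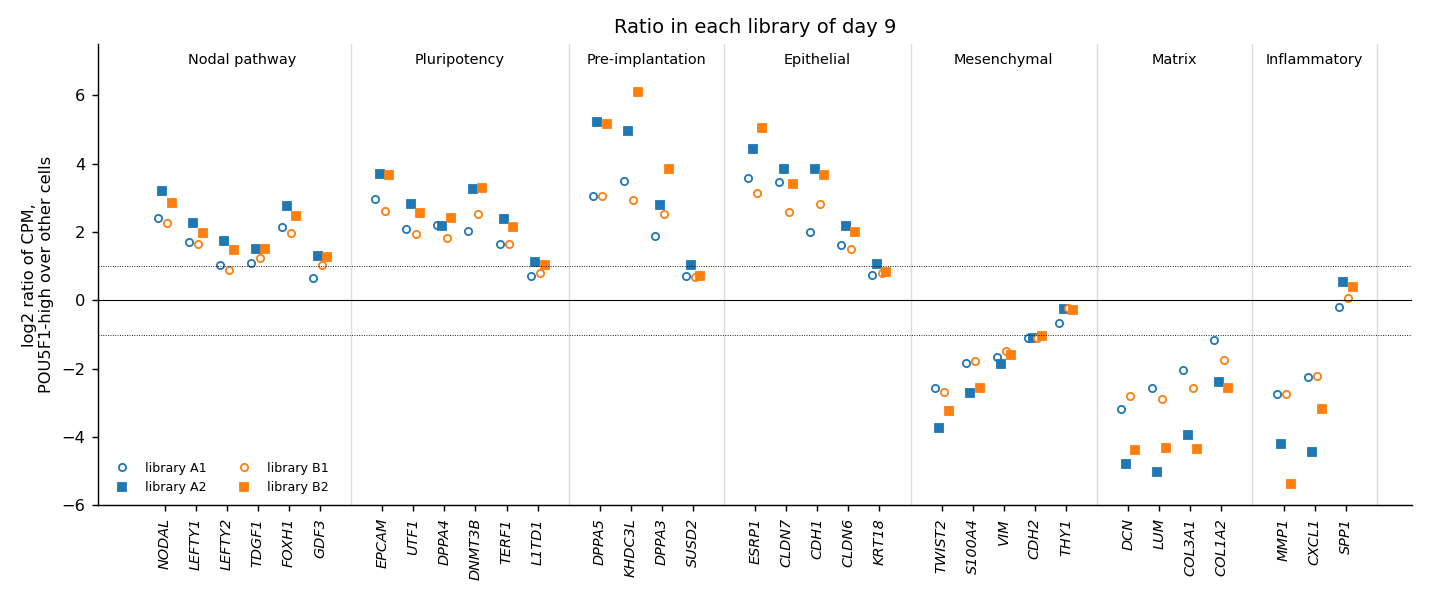
Log2 ratio of CPM between the POU5F1-high and the other cells of D9 (y axis) for 33 genes in 7 groups (x axis), with 1 point per library, blue for pool A, orange for pool B, open circles for the first and filled squares for the second aliquots. Dotted lines mark 2-fold either way, and for most genes the open points lie nearer 0 than the filled ones.

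Several defining markers of other lineages were near 0 in the members. At 5000 UMIs, CER1 was detected in 0.638% ± 0.663, EOMES in 0.999% ± 0.935, GSC in 0.307% ± 0.0433 and SOX17 in none of the POU5F1-high cells. MIXL1, the mesendoderm homeobox gene, was detected in 4.79% ± 0.0786 against 0.842% ± 0.330 of the other cells. Its level was 17.8, 16.8, 19.1 and 14.3 CPM against 24.0, 1.54, 3.02 and 5.66 CPM, so that library A1 went against the other 3. FGF8, a growth factor of the primitive streak, was 2-fold higher in every library, at 20.3 ± 3.79 against 4.02 ± 0.220 CPM. Summed over the mesendoderm list the level was 50.4 to 69.0 CPM in the members and 19.1 to 53.7 CPM in the other cells, with 2 of 4 genes higher and HHEX lower. Of the neural list, PAX6 was detected in 0.0845% ± 0.119 of members, FABP7 and SOX3 were higher and STMN2 was lower, out of 6 compared. The gene filter pooled members and other cells, so a gene seen mainly in the members could enter this count or that of the mesendoderm list. SOX1, a transcription factor of the neural plate, was detected in 20% of the members of A1 and in 0.192%, 0.875% and 0.376% of those of A2, B1 and B2. Its level was 33.1, 0.459, 1.16 and 0.226 CPM against 6.42, 0.721, 1.79 and 0.897 CPM in the other cells, so that A1 alone was high, in both groups.

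The trophoblast and amnion list was split. CSH1, a placental hormone of the growth hormone family, was at 220, 93.4, 106 and 37.4 CPM in the members of A1, A2, B1 and B2. In the other cells it was at 14.6, 5.28, 16.3 and 0.308 CPM, a 14.4-fold difference over the 2 pools. At 5000 UMIs it was detected in 11.3% ± 0.984 of the members, against 2.56% ± 1.40 of the other cells and no D0 cell. CSH2, a near-identical neighbour whose reads may be shared, was at 15.5 ± 1.01 CPM in the members. The defining markers were rare, with GATA3 detected in 1.10% ± 0.598 of the members against 0.194% ± 0.0291 of the other cells and CGA in 0.238% ± 0.141 against 0.399% ± 0.196. TFAP2A, a transcription factor of surface ectoderm and trophoblast that D0 fibroblasts also carried (26.9% of cells at 5000 UMIs), was lower in the members, at 15.0 against 46.0 CPM. Of 8 genes compared, 2 were higher, 1 lower and 5 neither. Without thinning, CSH2 was seen in 15.1% of the members and 4.24% of the other cells. It thus met the 5% filter through the members alone, and nothing is read from this count.

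Cell cycle genes were somewhat higher in sum and seldom 2-fold apart. Summed over the list, S phase genes were at 2750, 2270, 2680 and 2450 CPM in the members of A1, A2, B1 and B2 against 2230, 1620, 2030 and 1700 CPM in the other cells. G2M genes were at 5510, 5160, 5770 and 5320 CPM against 4310, 4030, 4510 and 3940 CPM. Both sums were thus higher in the members of every library. None of 54 G2M genes was counted in either direction (median log2 ratio 0.45), and of 42 S phase genes 1 was lower and none higher (median 0.39). Inhibitors of the cycle and targets of p53 were lower in 6 of 15 and higher in none. CDKN1A (p21) was at 20.1 ± 0.101 against 82.5 ± 21.1 CPM and CDKN2A (p16) at 49.4 ± 6.20 against 155 ± 7.07 CPM. Of 7 DNA methyltransferase and TET genes, DNMT3B and TET1 were higher, the latter at 111 against 39.1 CPM, and TET2 was lower.

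Levels were also taken by range of POU5F1. Cells with COL1A1 below 1000 CPM were cut into 5 ranges of POU5F1, with 879 cells under 50 CPM, 732 from 50 to 200, 342 from 200 to 500, 431 from 500 to 1000 and 542 at 1000 CPM or more. The ranges use the gene that chose the members, so their values are a description. NODAL went up through all of them, at 24.4, 92.1, 252, 390 and 460 CPM in pool A and 29.6, 96.3, 254, 361 and 437 CPM in pool B. EPCAM did the same, at 16.7, 46.2, 127, 258 and 435 CPM in pool A, with pool B close to it. VIM went down, from 2820 to 513 CPM in pool A and from 3040 to 527 CPM in pool B. These orders of NODAL, EPCAM and VIM were also found within each of the 4 libraries. The aliquots took unequal shares of the ranges, with 57, 336, 130, 196 and 131 cells of B1 and 254, 100, 73, 67 and 126 of B2, and the values of genes that did not keep 1 order are therefore given per library.

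LEFTY2 did not follow this order. From the third to the fifth range it was at 540, 229 and 224 CPM in A1, 484, 501 and 305 CPM in A2, 237, 280 and 206 CPM in B1 and 625, 459 and 280 CPM in B2. Cells with 1000 CPM or more of POU5F1 were thus lower than those of either range before them in every library, and the highest level lay at 200 to 500 CPM in A1 and B2 and at 500 to 1000 CPM in A2 and B1. LEFTY1 was highest in the fifth range in A1 and A2 (303 and 353 CPM), in the fourth in B1 (248 CPM) and in the third in B2 (359 CPM).

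DNMT3B and DPPA5 were highest in the last range in all 4 libraries. DNMT3B was at 5.66, 12.3, 17.9, 31.6 and 98.5 CPM in pool A and 6.11, 9.60, 17.4, 36.8 and 99.5 CPM in pool B. DPPA5 was at 1.13, 3.66, 15.3, 33.1 and 87.9 CPM in pool A and 1.31, 4.20, 10.4, 34.8 and 83.1 CPM in pool B. In both genes the step from the fourth to the fifth range was the largest in CPM, and the pools were close to each other. CSH1 was at 27.5, 66.4, 154 and 27.2 CPM in the fourth range of A1, A2, B1 and B2 and at 520, 152, 113 and 65.9 CPM in the fifth, with at most 18.8 CPM in any range below. It was highest in the fifth range in A1, A2 and B2 and in the fourth in B1.

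**Figure D3:**
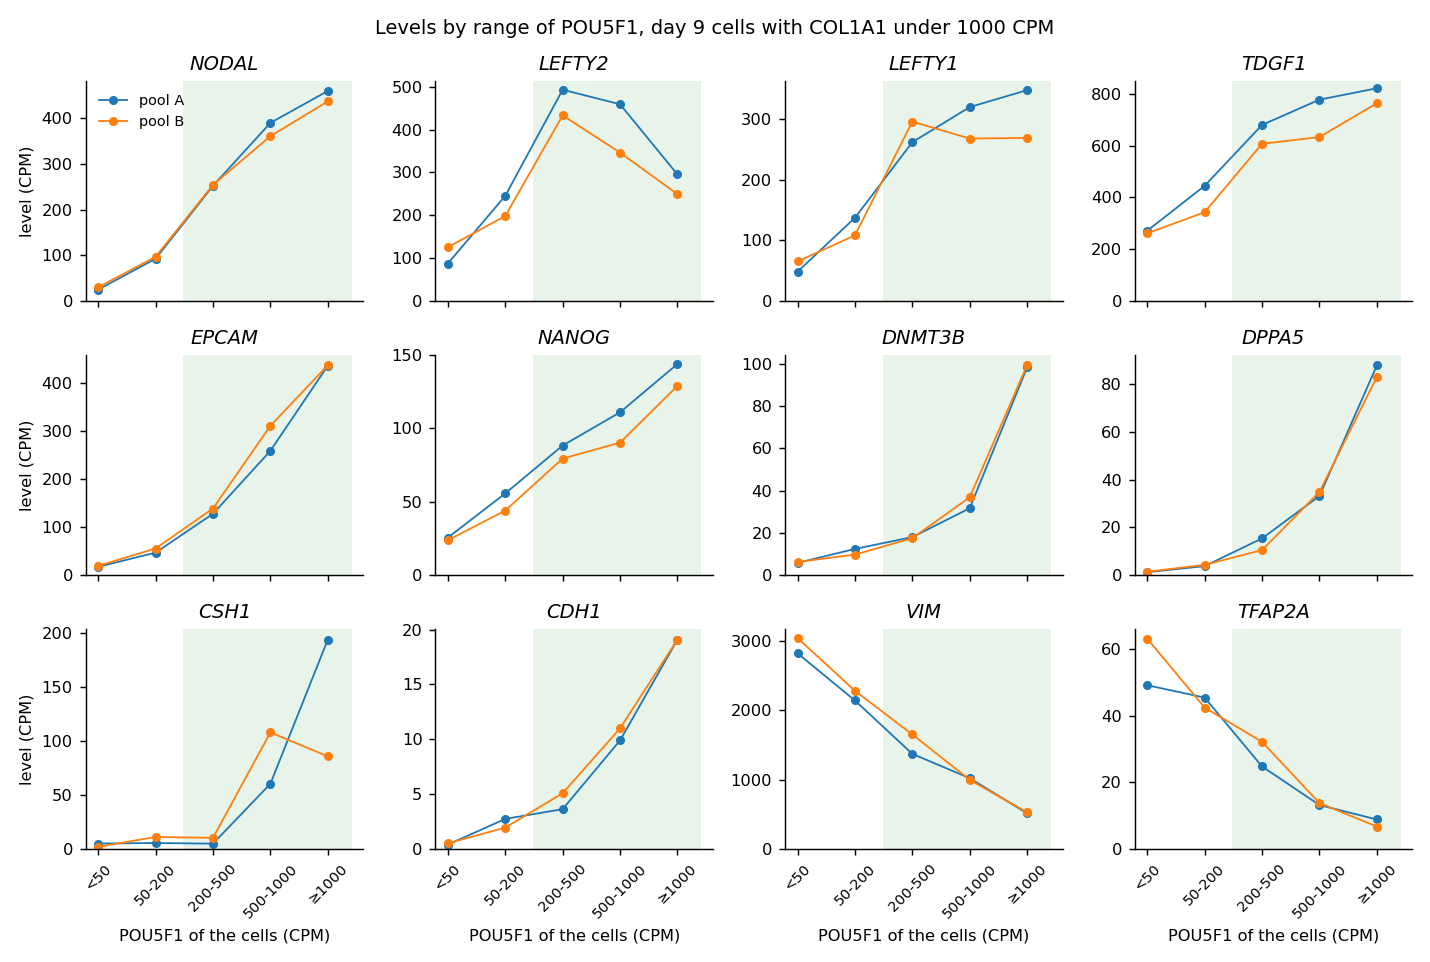
Level (y axis, CPM of summed UMIs) of 12 genes in D9 cells with COL1A1 under 1000 CPM, by range of POU5F1 (x axis, CPM), with blue for pool A and orange for pool B and the ranges inside the gate shaded. Summed over its aliquots each pool has its highest LEFTY2 level at 200 to 500 CPM (493 and 433 CPM), an order that 2 of the 4 libraries do not share, and DNMT3B rises most into the last range (98.5 and 99.5 CPM).

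Within the gate LEFTY1 was detected more often in members with a LEFTY2 UMI than in those without. At 5000 UMIs 428 members had both, 218 LEFTY2 alone, 247 LEFTY1 alone and 422 neither. LEFTY1 was detected in 66.3% of the 646 members with a LEFTY2 UMI and in 36.9% of the 669 without, and reads shared between the copies bear on this. NODAL was detected in 76.9% and 65.9% of these cells, MIXL1 in 6.81% and 2.84%, and DPPA4 in 52.5% and 61.4%. These are shares over cells of 4 libraries, given as a description with no test.

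The spread between members was largest for AES. Over the 3929 genes at 20 CPM or more in every library, and with each of the 1315 cells thinned to 10000 UMIs, the median ratio of variance to mean was 1.09, close to that of counting alone. AES had a ratio of 1620 (median over the libraries, 73.7 to 4780), and 1 cell of A1 and 1 of B1 held 646000 and 552000 CPM of it. Next came ACTC1, the cardiac actin gene, at 29.5 (14.3 to 51.4), MALAT1 at 27.2 and CSH1 at 19.6 (8.10 to 51.0). ACTA1, the skeletal muscle actin gene, was at 17.1, and it was among the leading genes of the members, at 69.8, 189, 269 and 175 CPM against 5.32, 23.0, 61.2 and 28.0 CPM. FTL (16.5), TMSB4X (15.1), SPP1 (13.5), CTGF (13.5) and TAGLN (12.8) completed the 10 most variable genes. The ratio grows with the level of a gene, so these orders mix level and spread.

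The same gate on other days gave the only tests, since the day of a cell took no part in its choice. UMIs of gate cells were summed per pool, and D9 was set against D7, D11 and D13 in 1 edgeR quasi-likelihood fit of the 10 pools of D7 to D15 and 14693 genes. A call needed an adjusted p (Benjamini-Hochberg over all genes) below 0.01 and a log2 fold change beyond 0.25. The 3 comparisons share the D9 pools. Cells of D11 and D13 also differed from D9 cells in medium and in the days since the last transfection, which cannot be told apart from time. The gate set no upper limit on POU5F1, so gate cells of different days may differ in POU5F1 level. What part this had in the day differences was not tested. Median log2 fold changes over all genes were 0.004, -0.041 and -0.046.

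Against D7, 3 genes (0.0204%) were higher on D9 and none was lower (0%), with 1460 genes at an unadjusted p below 0.05, and DESeq2 called 50 and 26. LEFTY1 was at 8.27 and 12.3 CPM on D7 and at 319 and 276 CPM on D9, a log2 fold change of 4.85 (SE 0.45, adjusted p = 0.0069, edgeR). FGF8 was at 0.552 and 0.438 CPM on D7 and 23.0 and 17.7 CPM on D9 (5.33, SE 0.50, adjusted p = 0.0069, edgeR), which rests on 5 UMIs of D7, a 40.2-fold ratio with an exact 95% counting interval of 17.2 to 124. With UMIs in at most 5 of the 110 D7 cells, FGF8 reached the share of 5% of gate cells that a test required only through D9 and later days, so the filter favoured this direction. RP11-568A7.4, a long non-coding RNA on chromosome 6 (167228200 to 167237517, plus strand), was at 0.735 and 1.75 CPM and then 12.5 and 11.8 CPM (3.31, SE 0.33, adjusted p = 0.0069, edgeR). Only 55 gate cells per pool stood behind the D7 values, and leaving out any of the 4 pools of D7 and D9 lost all 3 calls.

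Other genes of the pathway missed the threshold against D7. LEFTY2 was at 0.919 and 20.2 CPM on D7 and 389 and 333 CPM on D9 (log2 fold change 5.13, SE 0.86, adjusted p = 0.066, edgeR). NODAL was at 84.6 and 67.1 CPM and then 390 and 360 CPM (2.29, SE 0.41, adjusted p = 0.09, edgeR). EPCAM was at 202 and 162 CPM on D7 against 311 and 310 CPM, UTF1 at 422 and 464 CPM against 413 and 409 CPM, and TDGF1 at 464 and 560 CPM against 776 and 676 CPM. EPCAM, UTF1 and TDGF1 were not called. None of 27 pluripotency genes, 24 epithelial genes, 19 mesenchymal genes or 25 matrix genes passed against D7 (median log2 fold changes 0.32, 0.58, -0.92 and -0.55).

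Against D11, 90 genes (0.613%) were higher on D9 and 143 (0.973%) lower, and DESeq2 called 314 and 593. AES fell from 9330 and 4880 CPM on D9 to 346 and 298 CPM on D11 (log2 fold change of D9 over D11 4.51, SE 0.36, adjusted p = 0.00061, edgeR). The long non-coding RNA PCAT14 fell from 83.0 and 82.5 to 9.02 and 12.5 CPM (3.00, SE 0.20, adjusted p = 0.00015, edgeR). ARGFX fell from 14.3 and 10.6 to 0.0233 and 0.0193 CPM (5 UMIs, a 571-fold ratio with an exact counting interval of 244 to 1760, adjusted p = 4e-05, edgeR). It could not reach the 5% of gate cells that a test required through the 3713 cells of D11. The filter thus favoured this direction. SUSD2 fell from 33.5 and 26.8 to 5.78 and 7.89 CPM (2.19, SE 0.36, adjusted p = 0.0084, edgeR). FAM162B, the placental growth factor gene PGF and the synuclein gene SNCG were also higher on D9, as were MX1 and IFIH1, at 8.91 and 1.33 CPM on average. These were 2 of 14 interferon-stimulated genes tested, none was lower, and the median log2 fold change of the list was -0.26. Summed over the list, the gate cells of single libraries were at 732 to 998 CPM on D9 and at 743 to 1340 CPM on D11. MX1 kept its call in 1 of the 4 fits that left out 1 pool of D9 or D11. What part the end of transfection had in these levels was not tested.

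Genes lower on D9 than on D11 included 3 of the mesendoderm. CER1, a secreted inhibitor of Nodal and BMP (chromosome 9, 14719724 to 14722733, minus strand), was at 1.43 and 1.69 CPM on D9 and 129 and 97.9 CPM on D11 (-6.14, SE 0.87, adjusted p = 0.0067, edgeR). LHX1, a LIM homeobox gene of the primitive streak, was at 0.902 and 0.890 CPM against 34.1 and 15.4 CPM (-4.75, SE 0.67, adjusted p = 0.0049, edgeR), and MESP1, a gene of early mesoderm, passed as well (-3.31). Of 13 mesendoderm genes tested, 3 were lower on D9 and none higher. A gene was tested if a UMI was seen in 5% of the gate cells of any day, and on D9 only 7 of the 13 reached that share (CER1, LHX1 and MESP1 were at 3.33%, 4.75% and 2.40%), so the filter itself favoured genes that were higher on another day, and nothing is read from this count. All 3 calls were lost in each of the 4 fits that left out 1 pool of D9 or D11. TERF1, a telomere-binding protein, was at 312 and 299 CPM against 786 and 1060 CPM (-1.54, SE 0.18, adjusted p = 0.0024, edgeR), and the retinoic acid binding protein gene CRABP1 at 42.1 and 45.2 CPM against 170 and 146 CPM (-1.81, SE 0.17, adjusted p = 0.0011, edgeR). RP11-568A7.4 and WFDC2 were lower too. By contrast LEFTY1 (255 and 282 CPM on D11), LEFTY2 (387 and 407 CPM) and NODAL (207 and 187 CPM) were not called.

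These counts moved with single pools. Leaving out pool A or B of D9, or pool A or B of D11, left 5, 8, 8 and 4 genes higher on D9 and 0, 0, 19 and 5 lower. Of 16 called genes followed through these fits, PCAT14 and ARGFX passed in all 4 of these fits, and SUSD2, SNCG, WFDC2, IFIH1, CER1, LHX1 and MESP1 in none. ARGFX could meet the gene filter only through days other than D11.

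Against D13, 306 genes (2.08%) were higher on D9 and 802 (5.46%) lower, and DESeq2 called 647 and 1264. Pluripotency genes were lower on D9 in 9 of 27 and higher in 1, with a median log2 fold change of -0.87. DNMT3B was at 60.1 and 55.0 CPM on D9 and 249 and 236 CPM on D13 (-2.08, SE 0.25, adjusted p = 0.00071, edgeR). TERF1 was at 312 and 299 CPM against 1300 and 1490 CPM (-2.21, SE 0.19, adjusted p = 0.00017, edgeR). USP44, a deubiquitinase, POLR3G, a subunit of RNA polymerase III, and the transcription factor genes SALL2 and OTX2 passed in the same direction, as did LECT1 and JADE1. The exception was UTF1, which fell from 413 and 409 CPM to 222 and 114 CPM (1.30, SE 0.25, adjusted p = 0.0063, edgeR). SOX2, whose transfected copies are counted with its own, was at 62.8 and 35.9 CPM against 226 and 174 CPM (-2.02, SE 0.26, adjusted p = 0.00099, edgeR), and CDH1 at 12.8 and 12.4 CPM against 31.0 and 39.0 CPM (-1.49, SE 0.25, adjusted p = 0.0036, edgeR).

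Of 12 pre-implantation genes, 4 were higher on D9 than on D13, namely ARGFX, SUSD2, TFAP2C and UTF1, and 1, DPPA5, was lower. Among other genes higher on D9, CDKN2A was at 53.7 and 45 CPM against 11.2 and 10.8 CPM (2.16, SE 0.41, adjusted p = 0.0062, edgeR), a call lost in each of the 4 fits without 1 pool. SPP1 was at 1410 and 1430 CPM against 482 and 145 CPM (2.2, SE 0.45, adjusted p = 0.0087, edgeR). Of 15 secreted inflammatory genes tested, SPP1 and CXCL8 were higher on D9 and CXCL3, CXCL5 and CXCL6 lower, with a median log2 fold change of 0.28. TFAP2A and ISL1 were higher by 2.96 and 2.01 on the log2 scale and the cyclin gene CCND1 by 0.87. IFI16, a DNA sensor, was at 97.7 and 131 CPM against 3.83 and 12.5 CPM (3.75, SE 0.57, adjusted p = 0.0021, edgeR), and PDGFRA was higher by 1.14. SOX1 was at 4.93 and 0.709 CPM and had no UMI on D13, at least 163-fold higher by a floor of 3 UMIs over both pools (adjusted p = 0.0046, edgeR). Library A1 gave 206 of its 263 UMIs, the bound was 37.7-fold without it, and the gene could not have passed the filter through D13 itself. The call was lost without pool A of D9 and without pool B of D13. RP11-568A7.4 was again among the lower genes, at 179 and 208 CPM on D13 (-4.01, SE 0.23, adjusted p = 5.1e-05, edgeR), with PDPN, AASS, SCG3 and WFDC2 behind it. VIM (861 and 998 CPM on D9, 380 and 281 CPM on D13) and NODAL (163 and 52.9 CPM on D13) missed the threshold, with adjusted p = 0.018 and 0.012 (edgeR).

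Counts against D13 were sensitive to which pools entered the fit. Without pool A or B of D9 they were 55 and 69 higher and 98 and 88 lower, without pool A of D13 1048 and 1608, and without pool B of D13 314 and 839. A fit of the 4 pools of D9 and D13 alone gave none in either direction. The pools of D13 lay apart in NME2 by library (6.08 CPM in A and 457 CPM in B, all kept cells). Of 37 called genes followed through the fits that left out 1 pool, 12 passed in all of them, among them AES, PCAT14, FAM162B, PGF, RP11-568A7.4, AASS, TERF1, ARGFX and SUSD2.

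**Figure D4:**
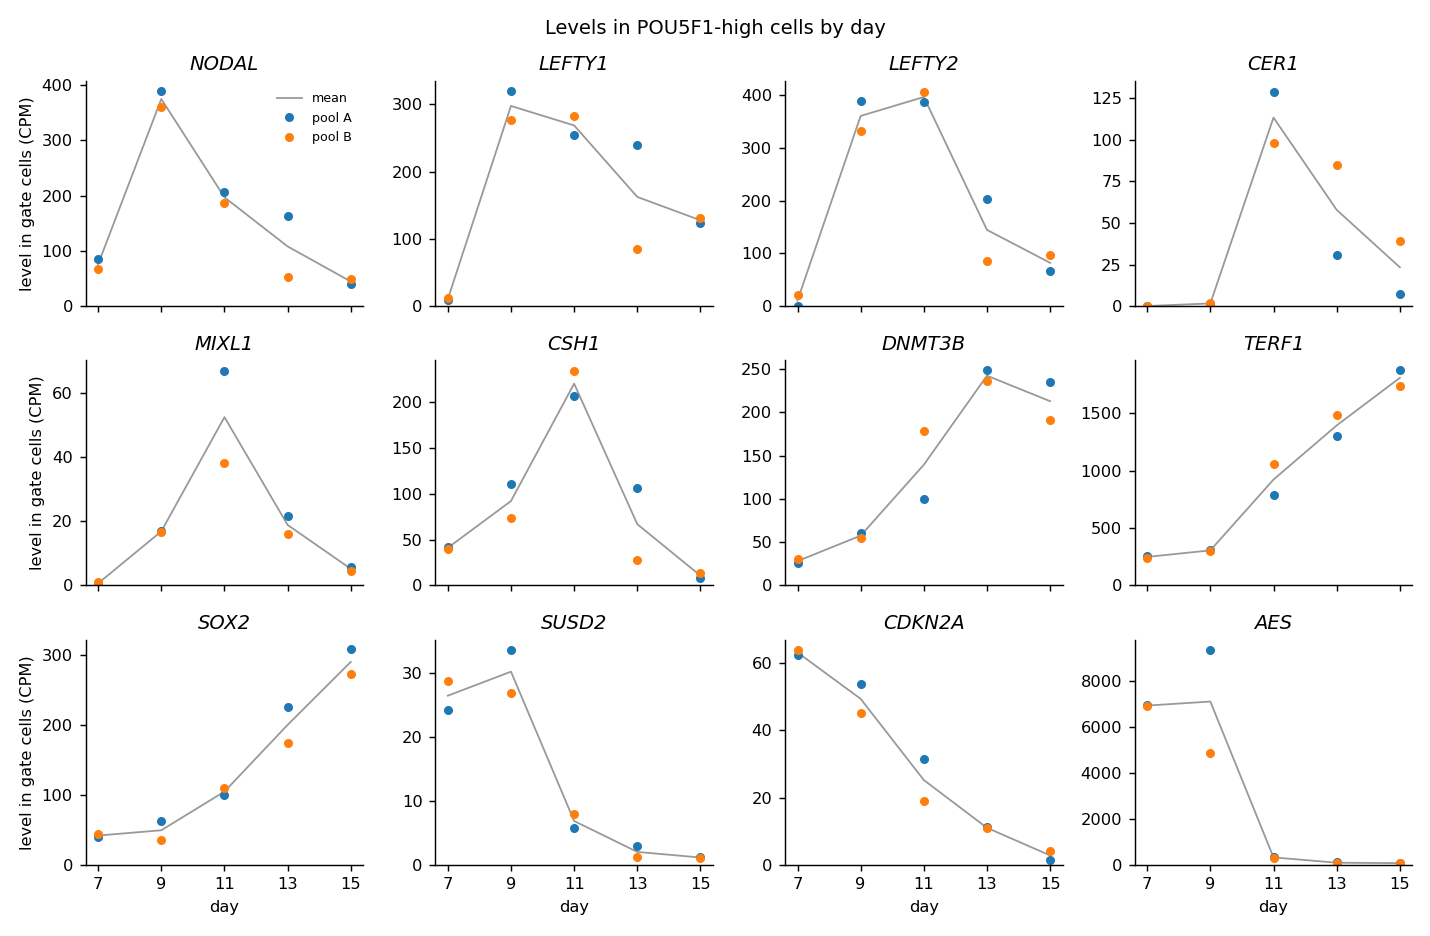
Level (y axis, CPM of summed UMIs) of 12 genes in the cells of the same POU5F1 and COL1A1 gate by day (x axis, D7 to D15), with blue points for pool A, orange for pool B and a grey line for their mean. LEFTY1 is at 8.27 and 12.3 CPM on D7 and 319 and 276 CPM on D9, CER1 peaks on D11 (129 and 97.9 CPM), and AES is at 9330 and 4880 CPM on D9 and under 350 CPM from D11 on.

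POU proteins bind an octamer, and the RefSeq windows from 250 bases before to 50 after each gene's start (GRCh38.p14) were searched for its letters, ATGCAAAT, on both strands (ATTTGCAT on the other). They were in 623 of 35116 windows (1.77%), in 7 of 466 windows of the genes 2-fold higher in POU5F1-high cells (1.5%), in 17 of 942 of the lower genes (1.80%) and in 153 of 12924 of the remaining genes compared (1.18%). The share among the higher genes was thus above that of the remaining genes compared and below that of all windows, with 7 windows behind it and no test. SFRP2, which encodes a secreted modulator of Wnt signalling, is shown as the pluripotency-list gene with a match. It was at 210, 209, 193 and 202 CPM in the members against 89.4, 69.5, 76.9 and 71.5 CPM. The 250 bases before its start, chr4:153789084-153789333 on the minus strand, read 5′ to 3′ with the octamer on the opposite strand in capitals:
SFRP2: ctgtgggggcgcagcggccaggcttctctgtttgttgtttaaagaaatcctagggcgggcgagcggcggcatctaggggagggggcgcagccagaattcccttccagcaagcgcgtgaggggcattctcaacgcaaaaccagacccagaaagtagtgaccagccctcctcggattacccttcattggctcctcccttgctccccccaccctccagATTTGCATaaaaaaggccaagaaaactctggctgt
A match is a run of letters in this window and says nothing about binding.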

How the data were processed

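UMI counts per gene and cell were deposited by the authors as 1 matrix per library of 33694 genes, made with Cell Ranger 2.2 from 10x Genomics 3' libraries sequenced on a NovaSeq and mapped to the human genome (GRCh38). Matrices are raw counts with no normalization. All 44197 barcodes were read and 41975 kept (at least 1000 genes, at most 10% mitochondrial UMIs). The gate, the gene lists (21) and the tests were chosen with earlier results of these data known. Between D9 libraries 3 barcodes were shared, in 1 case by members in both.

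For D9, UMIs were summed over gate and other cells in each library and given as CPM, and pool levels add the aliquots of a pool. Gate cells of D9 were compared with those of D7, D11 and D13 by edgeR 4.0.16 (glmQLFit, TMM; R 4.3.3), with pools as samples, the 10 pools of D7 to D15 in 1 fit, and genes with a UMI in at least 5% of gate cells of a day. DESeq2 1.42.0 was an alternative. The depth behind a pool was 4562473 to 132268943 UMIs of gate cells. No doublet caller was run: 9 cells high in both genes stayed outside the gate, and cells in the top 5% by UMIs were left out in an alternative. On simulated counts with 200 of 14693 genes changed, edgeR found 145, 151 and 151 in the 3 comparisons (D7, D11, D13), with 3, 5 and 4 of 50 at 2-fold and all 50 at 8-fold, and 1, 5 and 7 false calls. The changed genes were all above 5 CPM on average over the pools, and counts were drawn with the fitted spread of each gene. These shares therefore do not carry over to genes below that level, nor to every gene above it.

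Genes named in the text were members of the lists, the 10 most extreme ratios each way on D9 and the 5 largest called changes each way per day at 50 CPM or more in every library or pool of the higher group, and the 10 most variable genes within the gate; genes that moved between the aliquots and SFRP2 were named after their values were seen. 1 gene counted in the lists is not reported here. Alternatives were another tool, size factors and gene filter, each pool or library left out, other limits of the gate, thinned cells, a stricter cell filter, the 4 pools of a comparison alone, and the pool letter as a block. AES left out of totals, the first and second aliquots alone, and other choices of the comparison cells were added after the data were seen. Positions are from the GENCODE annotation and promoter windows from RefSeq (GRCh38.p14).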

Additional observations from a re-analysis of the deposited data

Results flagged for a closer look

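Among 183 sets of 4 D9 library values of the genes named above, 11 had 1 library far from the other 3. Such a gap arises in about 1 of 20 sets of 4 independent normal values. The libraries are aliquots of shared pools, and first and second aliquots stood apart, so the number found cannot be set against that share. Of the 11 sets, 7 were in the POU5F1-high cells of library A1, the library with the fewest members (70). There SOX2 was at 267 CPM (29.1 to 42.1 in the other 3), LIN28A at 1300 CPM (138 to 263), SOX1 at 33.1 CPM (0.226 to 1.16), AES at 27800 CPM (4670 to 6410), THY1 at 394 CPM (531 to 555), FTL at 3770 CPM (4710 to 4850) and TMSB4X at 10600 CPM (11600 to 11800).

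The remaining values were in the other libraries. NANOG was at 80.4 CPM in the POU5F1-high cells of B1, against 119 to 125 CPM in the others, and VIM at 1130 CPM in those of B2, against 848 to 876 CPM. In the other cells of B1, IGFBP5, a binder of insulin-like growth factors, was at 874 CPM against 511 to 549 CPM, and CSH2 at 3.02 CPM against 0 to 0.470 CPM.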

How the results depend on the processing

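Counts of genes called between days moved with the fit and with the gate. Against D7, the counts higher and lower on D9 (3 and 0) were 50 and 26 with DESeq2, 122 and 125 with no gene filter and 42 and 24 in the 4 pools alone. The 3 higher genes were lost (0) with no COL1A1 limit, without the top 5% of cells by UMIs, and in every fit without 1 pool (0 to 0).

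Against D11 (90 and 143), DESeq2 gave 314 and 593, no gene filter 402 and 1046, and an adjusted p below 0.05 with no fold limit 304 and 656. No COL1A1 limit gave 51 and 70, thinning to 20000 UMIs 32 and 44, a stricter cell filter (2000 genes, 5% mitochondrial) 32 and 56, and the first aliquots of D9 alone 26 and 39. Without 1 pool the counts were 4 to 8 and 0 to 19.

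Against D13 (306 and 802), the same settings gave 647 and 1264 (DESeq2), 752 and 2061 (no gene filter), 760 and 1508 (0.05), 166 and 453 (stricter cells) and 0 and 0 (4 pools alone). The first aliquots alone gave 474 lower, and fits without 1 pool 55 to 1048 and 88 to 1608.

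Pool letters are shared between days. With the letter as a replicate block the counts were 0 and 0 (D7), 32 and 65 (D11) and 240 and 629 (D13). Deviations of same-lettered pools correlated at -0.297 to 0.335 over 10 pairs of days (median -0.0782). These deviations also hold differences between libraries, as in NME2, so whether the letters pair the pools cannot be told from them.

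For the 2-fold counts on D9 (514 higher, 767 lower), the 2 pools in place of 4 libraries gave 803 and 1335, the second aliquots alone 833 and 1418, other cells with COL1A1 at 1000 CPM or more 1371 and 1875 (library A1, with 2 such cells, left out), 1.5-fold 950 and 1563, and 4-fold 126 and 143. A POU5F1 limit of 100 CPM gave 424 lower. Without 1 library the counts were 524 to 626 and 791 to 1079. The share in the gate (38.9%) was 49.2% with a limit of 100 CPM, 31.1% with 400 CPM, 50.2% in the first aliquots alone and 34.4% to 46.3% without 1 library, the highest without A2.

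The other 107 values of these counts and of the share stayed within 1.5 times the reported count or 1 SD of the reported share, and none of these counts reversed. For 57 genes named in the day tests, 900 values stayed on the same side of the threshold, 234 no longer passed, 4 newly passed and none reversed. Of 1519 values of the D9 ratios of 95 named genes, 508 moved by more than the spread between the pools, by a median of 0.23 on the log2 scale, and 95 by more than 1.5 times. These were most frequent with the first aliquots alone (80 and 29 of 95) and without library A2 (68 and 19). 8 values of 5 genes (AES, SPP1, PDGFRA, GAPDH and SOX1) changed sign, none of them 2-fold in all libraries: AES was at -0.81, and at 0.41 in the first aliquots alone, and SOX1 at 0.60, and at -0.73 without A1. The cause of a change was not tested. With 2 pools a day, a gene that missed the threshold is not shown to be equal.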

Other observations

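Several groups of genes not described above were also compared between the POU5F1-high and the other cells of D9. None of 16 glycolysis genes counted in either direction (median log2 ratio 0.03), and GAPDH was at 4390 against 4500 CPM. Of 12 let-7 target genes, LIN28B, the paralog of LIN28A that was not transfected, and TRIM71, an RNA-binding ubiquitin ligase, were higher, at 17.5 against 2.56 CPM and 36.8 against 14.4 CPM, and HMGA1 counted neither way at 2340 against 1220 CPM (median of the list 0.7). Contractile genes were lower in 3 of 10 (median -1.1), led by ACTA2 (smooth muscle actin) at 48.7 against 340 CPM, and their sum was 3400 to 4330 CPM in the members and 6170 to 8230 CPM in the other cells. The skeletal muscle actin gene ACTA1, which was not on that list, went the other way and was 6.65-fold higher in the members. Of 13 interferon-stimulated genes, IFITM1 was higher and IFIH1 lower, and ISG15 was at 121 against 125 CPM. IFITM1 also separated the aliquots within the gate.

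The genes that separated first from second aliquots were of several kinds. Within the gate CRIP1, a LIM protein, was at 144, 8.06, 94.8 and 8.29 CPM in A1, A2, B1 and B2, CD81, a tetraspanin, at 377, 59.1, 287 and 70.4 CPM, and the cytokine gene MIF at 1260, 259, 897 and 360 CPM. The mitochondrial genes MT-ND6 (180, 38.6, 180 and 33.2 CPM) and MT-ND3 (1850, 548, 1580 and 564 CPM) did the same. In all kept cells NME1, the neighbour of NME2, stayed between 438 and 540 CPM in the 4 D9 libraries. Genes of the aliquot set made up 3.11% of the higher and 3.13% of the lower genes on D9, close to their 2.91% of all genes compared there. They were 2.22% and 0% of those called against D11 and 1.31% and 0.499% of those called against D13, beside 2.59% of all genes tested between days. The set was drawn from the same gate values. Ratios on D9 were taken within a library, and a wide spread between pools makes a call between days less likely. These shares therefore cannot show what part the aliquots had.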
